A study of Mus musculus with 2 samples.

Results

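The genes described here are the subunits of the mitochondrial respiratory chain and of ATP synthase, in single cells from the cerebellum of newborn mice. They were taken by symbol: all mt- genes, and the nuclear genes whose symbols start with Nduf and a subunit letter, Cox4 to Cox8, Uqcr or Atp5, or are Sdha, Sdhb, Sdhc or Sdhd. This gave 98 of the 32285 genes in the count tables, 85 of them nuclear and 13 encoded by mitochondrial DNA. The rule reads symbols alone, but the members were chosen with earlier results of these data known. By complex, 36 nuclear and 7 mitochondrial genes belong to complex I, 4 nuclear genes to complex II, 8 and 1 to complex III, 20 and 3 to complex IV, and 17 and 2 to complex V. Ndufa4 and Ndufa4l2 were placed in complex IV, where their proteins sit. Ndufab1, Cyc1 and Cycs fall outside the symbol rule and are given separately.

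Respiratory chain complexes I to IV pass electrons from NADH and succinate to oxygen and build up a proton gradient, and complex V, the ATP synthase, uses that gradient to make ATP. Most subunits are made from nuclear genes and imported, whereas a small core of complexes I, III, IV and V is encoded in the mitochondrial DNA and made inside the organelle. Complex II is made from nuclear genes alone and also serves the citric acid cycle. Several subunits of complexes IV and V exist as isoforms from separate genes, some of them known from heart and skeletal muscle, lung or testis. Purkinje cells are the large, tonically firing output neurons of the cerebellar cortex, and granule cell progenitors are the dividing cells of its outer layer.

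The study compared Cxcr4+/1013 mice with control littermates, labelled Cxcr4+/+, at postnatal day 1. Both groups carry the strain label B6.129S2-Cxcr4tm1.1Bala, and the 1013 allele encodes a chemokine receptor with a shortened tail. The genotype label was used, although the extraction text writes Cxcr4+/-. Cells came from lobules III and IV after papain treatment, with 1 library of each genotype. The sources used here do not say how many mice went into a library, and both held cells of both sexes. The allele itself cannot be seen in counts of transcript ends, so the genotype labels were not checked. With 1 library of each genotype no difference between genotypes has a replicate, so no p-value is given, and all intervals (95%) cover counting error only.

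The control library held 120003656 unique molecular identifiers (UMIs, each counted as 1 transcript molecule) in 9586 barcodes, and the mutant library 130429500 in 9551. Barcodes needed at least 500 genes and at most 20% mt- UMIs. After removal of likely doublets, 8295 control and 8066 mutant cells were kept, with medians of 11436 and 12850 UMIs. Of these, 5836 and 6197 passed a gate on marker genes, scored for 17 cell types, and the 10 classes that reached 100 cells in both were compared. The libraries shared 25 of their deposited barcodes and 18 of the kept ones. Levels are given as counts per 1000000 UMIs (CPM), summed over the cells of a class in a library. A 3' library counts each molecule once, so these levels are not divided by transcript length.

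The Purkinje cell gate took 603 control and 514 mutant cells. All 7 markers were highest in them in both libraries, but the gate was built on these markers, so this is no separate check. Calb1, a calcium buffer of these neurons, stood at 3787 CPM in the control and 3843 CPM in the mutant library, against at most 28.6 and 28.0 CPM in any other compared class. Car8 stood at 4496 and 4636 CPM, against at most 230 and 233 CPM. Purkinje cells were also the deepest class, with medians of 33414 and 34872.5 UMIs per cell. The other compared classes had medians between 9713 and 17684.5 UMIs.

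Purkinje cells carried the highest levels of respiratory chain transcripts of the compared classes, in both libraries and from both genomes. Their nuclear members summed to 40704 CPM in the control library (95% Poisson interval 40610 to 40798) and to 40091 CPM in the mutant library (39995 to 40187). The other 9 classes lay between 14831 and 23493 CPM. The mt- genes of Purkinje cells summed to 79960.5 CPM and 78099 CPM, against 23593 to 42116 CPM in the others. Classes too small to be compared reached at most 44953 mt- CPM, in control fibroblasts. No other class came near the Purkinje values in either library.

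Within single Purkinje cells, the nuclear members took a median of 3.94% of the UMIs (control) and 3.99% (mutant), and the mt- genes 7.63% and 7.66%. In counts this was a median of 1387 and 1440 nuclear UMIs and 2578 and 2637.5 mt- UMIs per cell. Granule cell progenitors, at medians of 2.37% and 2.19% for the nuclear members and 2.70% and 2.47% for the mt- genes, had nearly as much of one as of the other. Astroglia or Bergmann glia had the highest mt- level after Purkinje cells in the control library, at 42116 CPM. In the mutant library the oligodendrocyte lineage, at 33956 CPM, and astroglia, at 33863 CPM, followed Purkinje cells closely together.

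The balance between the genomes differed from class to class. Granule cell progenitors had the highest ratio of nuclear to mt- UMIs, 0.866 in the control library and 0.877 in the mutant library, followed by granule neurons at 0.789 and 0.825. Purkinje cells were near the low end, at 0.509 (0.508 to 0.510) and 0.513 (0.512 to 0.515). Only astroglia, at 0.479, were lower in the control library, and no compared class was lower in the mutant library. The cap on mt- UMIs was part of how the cells were chosen. It removes cells with a high mt- share but sets no lower bound on the ratio of a cell.

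**Figure D1:**
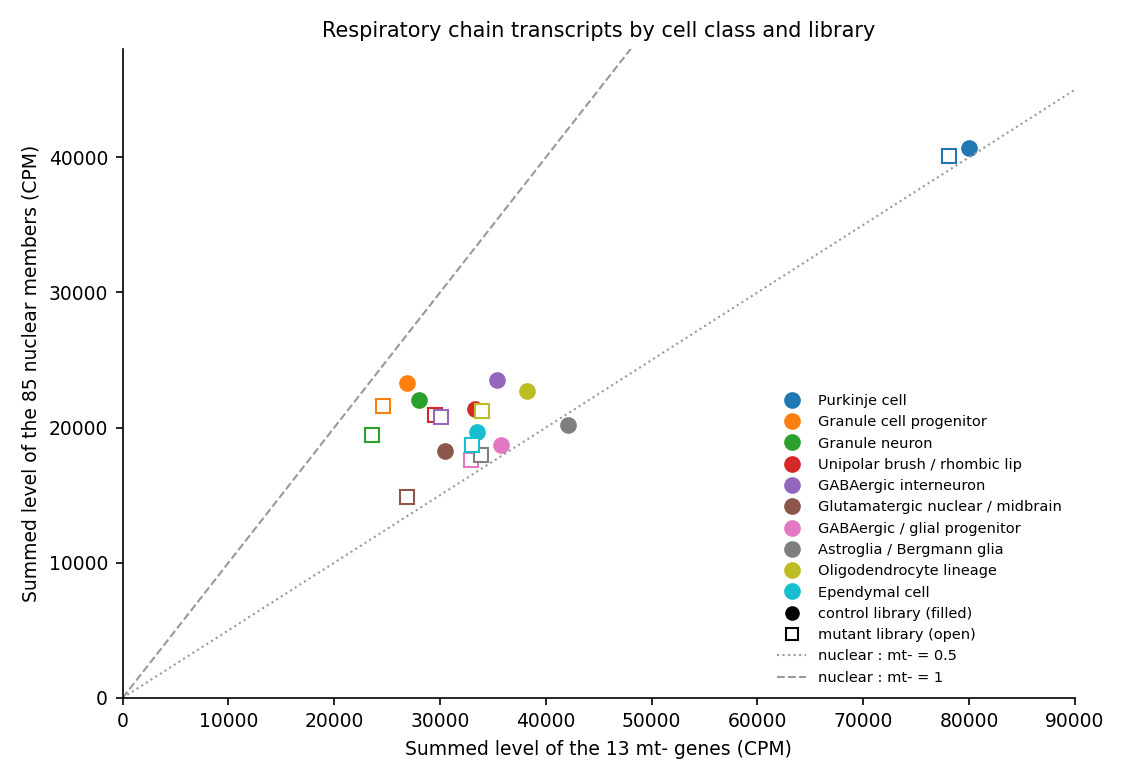
Summed level of the 85 nuclear members (vertical axis, CPM) against the summed level of the 13 mt- genes (horizontal axis, CPM) in 10 cell classes. Filled circles are the control library, open squares the mutant library, and lines mark fixed ratios; Purkinje cells stand apart at about 40704 nuclear and 79960.5 mt- CPM, while the other classes form a cloud with no common line.

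Across the 10 classes the nuclear and mt- levels had a Pearson correlation of 0.80 (control) and 0.82 (mutant). Without Purkinje cells the value over the remaining 9 classes was -0.17 and -0.04. The positive coefficient rested on Purkinje cells. These classes share a library and differ in depth, so the coefficients are descriptions and carry no test.

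To compare genes, each one was expressed as the log2 CPM in Purkinje cells minus the mean log2 CPM of the other 9 classes, with a sum of 0 set at 3 counts. A gene was counted as higher or lower when it differed at least 1.5-fold in both libraries. Among the 83 nuclear members with at least 50 UMIs, 59 were higher, 0 were lower and 24 were neither. At 2-fold, 27 were higher. Of all 18339 genes tested, 19.1% were higher and 36.7% were lower at 1.5-fold, and the share at 2-fold is not given here. Cox8b and Cox8c, with 2 and 4 UMIs in all, were not tested. The median nuclear member stood at 0.85 (control) and 0.94 (mutant), and the median of all genes at -0.33 and -0.35. Purkinje cells were the highest of the 10 classes in both libraries for 74 nuclear members, which 9.83% of all genes also showed.

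Summed over members, the difference was 0.95 and 1.07 for the nuclear genes and 1.26 and 1.40 for the mt- genes, on the log2 scale in the control and mutant library. The CPM scale sets a common zero by total UMIs. Scaling by TMM factors instead added 0.33 and 0.35 to the Purkinje difference of every gene, and DESeq2 size factors added 0.28 and 0.29. On either scale 77 nuclear members were higher, but the share of all genes on these scales is not given here.

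Complex I, the NADH dehydrogenase, had a smaller share of higher nuclear genes than complexes III, IV and V. Of its 36 nuclear genes, 20 were higher in Purkinje cells, with a median log2 difference of 0.65 (control) and 0.77 (mutant). Ndufc2, an accessory subunit, was its most abundant nuclear member in Purkinje cells at 840.0 and 774 CPM, against 372 to 671 CPM in the other classes of the control library. Ndufa2, another accessory subunit, was close to even at 253 and 265 CPM, with differences of 0.05 and 0.18. Ndufs4 (0.43 and 0.35) and Ndufb3 (0.41 and 0.43) were also among the 8 nuclear members with the smallest differences.

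The 7 mt- subunits of complex I differed more than its nuclear subunits, with medians of 1.59 and 1.67. mt-Nd1 reached 10187 CPM in control and 9778 CPM in mutant Purkinje cells, against at most 4703 and 4024 CPM in another compared class. mt-Nd4l had the largest difference of the 13 mt- genes, 1.65 and 1.99, though its reading frame overlaps mt-Nd4 and the 2 cannot be fully told apart. mt-Nd6 was the exception among the 13, at 47.2 and 38.7 CPM and differences of 0.64 and 0.52, so that 12 of 13 mt- genes were higher. It is the mt- protein gene on the opposite strand and also the least abundant, and astroglia had 46.9 and 45.2 CPM of it, just under Purkinje cells in the control and above them in the mutant library.

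Complex II, the succinate dehydrogenase, had the lowest median difference, 0.51 and 0.55. Its 4 genes summed to 567 and 537 CPM in Purkinje cells. Sdha, the flavoprotein that oxidises succinate, stood at 114 and 120 CPM there and at 142 and 133 CPM in granule cell progenitors, with differences of 0.15 and 0.22. The membrane anchor Sdhc differed by 0.39 and 0.50. Sdhb, the iron-sulphur subunit and the most abundant of the 4 at 190 and 163 CPM, differed by 0.62 and 0.60. The other anchor, Sdhd, differed by 0.97 and 1.005. The subunits of this 1 complex thus ranged from near even to about 2 times the level of the other classes.

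Complex III, the cytochrome bc1 complex, was higher throughout, with 8 of 8 nuclear genes and mt-Cytb counted. Uqcrh, the hinge protein, was the most abundant nuclear one at 725 and 716 CPM. Uqcr10, a small subunit, differed most, with 614 CPM in control and 610.0 CPM in mutant Purkinje cells against at most 263 and 236 CPM elsewhere, a difference of 1.68 and 1.83. The core proteins Uqcrc1 (0.90 and 1.02) and Uqcrc2 (0.65 and 0.72) differed less. mt-Cytb, the only subunit of this complex from the mitochondrial genome, stood at 9762 and 8766 CPM and differed by 1.40 and 1.58.

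Complex IV, cytochrome c oxidase, had 13 of 18 tested nuclear genes higher and 3 of 3 mt- genes. Ndufa4 was the most abundant nuclear member of the whole set, at 2500.0 and 2326 CPM in Purkinje cells and 641 to 1467 CPM in the others. Cox5b (1.55 and 1.69) and Cox8a (1.52 and 1.60) were among the 8 nuclear members with the largest differences. Cox4i1, the common form of subunit 4, was less uneven at 0.52 and 0.69. The catalytic subunits mt-Co1 (0.86 and 1.01), mt-Co2 (1.14 and 1.27) and mt-Co3 (1.08 and 1.24) differed less than most of the mt- subunits of complex I. mt-Co1 in particular reached 6889 and 7094 CPM in Purkinje cells and 5558 and 5801 CPM in the next class.

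Complex V, the ATP synthase, had 16 of 17 nuclear genes higher and 2 of 2 mt- genes. Atp5b, a subunit of the catalytic head, stood at 983 and 998 CPM in Purkinje cells against 289 to 612 CPM in the other classes of the control library. Atp5md, a small membrane subunit, stood at 832 and 1018 CPM, with differences of 1.54 and 1.62. mt-Atp6, which forms the proton channel with the c ring, was the most abundant of the 98 genes at 16544 and 15621 CPM. Its neighbour mt-Atp8 shares sequence with it and was counted at only 94.0 and 130.0 CPM.

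**Figure D2:**
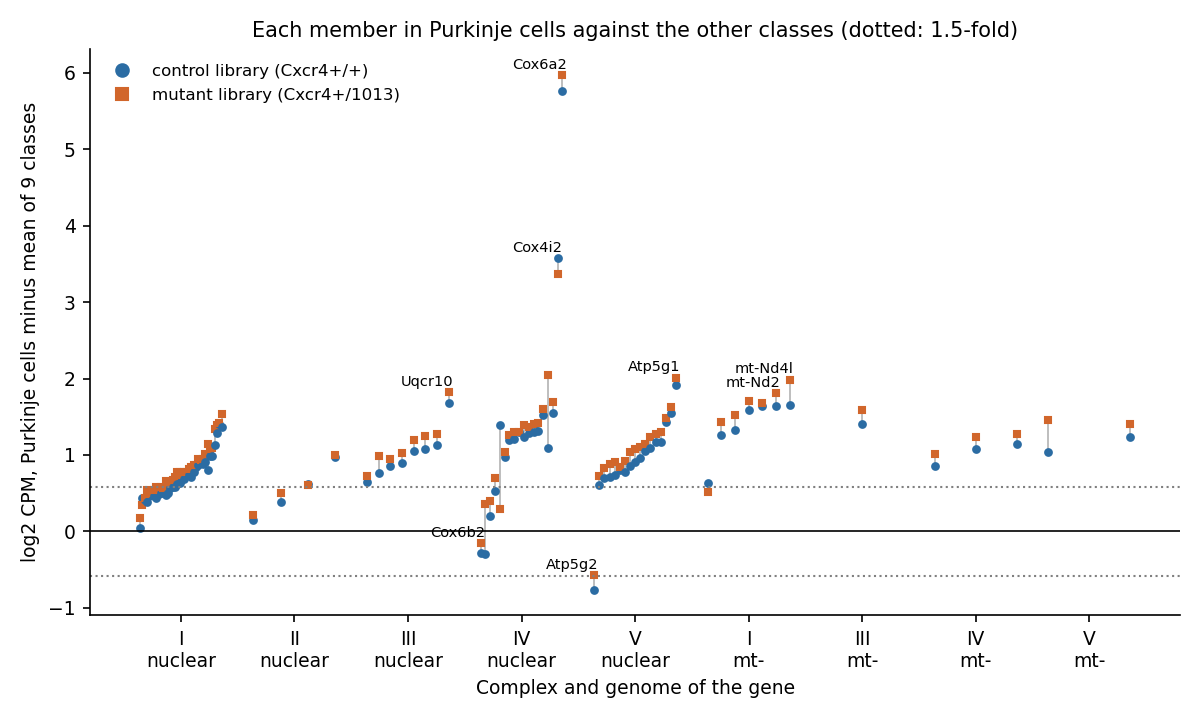
Log2 CPM in Purkinje cells minus the mean of 9 other classes (vertical axis) for each tested member, grouped by complex and genome (horizontal axis). Circles are the control and squares the mutant library, a line joins the 2 values of a gene, and dotted lines mark 1.5-fold; most genes lie above the upper line in both libraries, Cox6a2 and Cox4i2 far above it, and Atp5g2 is the lowest.

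The exception in complex V was a gene for the same protein as its highest member. Atp5g1, Atp5g2 and Atp5g3 encode an identical mature c subunit, the piece of the rotating ring, behind different import signals. Atp5g1 (chr11:96068852-96075670, minus strand, GRCm38) stood at 1208 CPM in control and 1052 CPM in mutant Purkinje cells and at no more than 443 and 343 CPM in the other classes. Its difference of 1.91 and 2.01 was the largest of complex V. Atp5g3 (chr2:73908447-73911326, minus strand) followed at 958 and 878 CPM, a difference of 1.43 and 1.48. Atp5g2 (chr15:102662864-102672352, minus strand) went the other way, with 246 and 227 CPM in Purkinje cells. It reached 719 and 599.9 CPM in granule cell progenitors and 678 and 536 CPM in the oligodendrocyte lineage, and its difference of -0.76 and -0.57 was the lowest of any nuclear member. It missed the count of lower genes in the mutant library by a small margin, and stayed below 0 on the TMM and DESeq2 scales. The same ranking within Purkinje cells, Atp5g1 over Atp5g3 over Atp5g2, was seen in both libraries, and in granule cell progenitors Atp5g2 was the highest of the 3.

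The promoters of these 3 genes are shown because genes for one protein stood on opposite sides of the other classes. The sequences are from RefSeq on GRCm38.p6, 250 bases before to 50 after the annotated start, in the direction of transcription. Capitals mark the core motif of NRF1, a regulator of respiratory genes, spelled GCGCATGC and searched on both strands.
Atp5g1 (chr11:96075582-96075881, minus strand): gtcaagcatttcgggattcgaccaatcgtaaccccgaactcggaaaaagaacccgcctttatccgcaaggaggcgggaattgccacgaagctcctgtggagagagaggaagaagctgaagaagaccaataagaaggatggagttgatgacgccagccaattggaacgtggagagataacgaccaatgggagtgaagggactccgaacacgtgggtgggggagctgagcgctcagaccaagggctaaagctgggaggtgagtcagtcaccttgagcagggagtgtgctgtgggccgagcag
Atp5g2 (chr15:102670998-102671297, minus strand): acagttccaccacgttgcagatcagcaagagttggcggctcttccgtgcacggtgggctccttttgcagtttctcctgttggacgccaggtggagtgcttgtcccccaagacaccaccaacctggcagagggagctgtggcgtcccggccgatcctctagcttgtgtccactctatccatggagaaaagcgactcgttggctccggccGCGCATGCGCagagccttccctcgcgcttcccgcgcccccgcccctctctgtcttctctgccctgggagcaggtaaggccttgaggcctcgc
Atp5g3 (chr2:73911277-73911576, minus strand): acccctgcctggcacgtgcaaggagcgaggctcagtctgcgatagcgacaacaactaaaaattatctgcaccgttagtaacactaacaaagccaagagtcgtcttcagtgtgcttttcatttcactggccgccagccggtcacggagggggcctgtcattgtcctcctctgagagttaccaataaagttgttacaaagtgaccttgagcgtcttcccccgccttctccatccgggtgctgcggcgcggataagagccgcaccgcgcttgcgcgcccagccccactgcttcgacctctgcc

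The letters were found in the Atp5g2 window alone, as 2 overlapping matches on opposite strands, 42 to 33 bases before the start. That window lies wholly inside the annotated gene, whose first base is at 102672352. The Atp5g1 and Atp5g3 windows each span the first base of their gene, so the windows are not equivalent. A promoter was matched for 69 of the 85 nuclear members. The NRF1 letters were present in 10 of these (14.5%), against 3.05% of all 27025 genes with a promoter in the table. A core of the ETS motif bound by GABP, spelled CCGGAAG on either strand, was present in 17 (24.6%), against 9.93% of all genes. Of the 48 matched members that were higher in Purkinje cells, 9 held the NRF1 letters and 15 the ETS letters. Of the 20 that were tested and not higher, 1 and 2 did. These are matches of letters in windows of 300 bases and are not binding sites by themselves, and windows at other annotated starts of these genes were not examined. Neither set of letters was found in the Atp5g1 or Atp5g3 window.

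Several isoforms of complex IV were each high in 1 or a few classes. Cox6a2, the isoform of subunit 6a known from heart and skeletal muscle (chr7:128205435-128206387, minus strand), had 329 UMIs in control and 393 in mutant Purkinje cells, or 18.5 and 23.5 CPM. In the other 9 classes it never exceeded 0.48 CPM, and no class or library among them held more than 7 UMIs. The common isoform Cox6a1 was also higher in Purkinje cells, at 528 and 504 CPM, so Cox6a2 was a small part of subunit 6a transcripts there. Cox7a1, the muscle isoform of subunit 7a, had 36 and 47 UMIs in Purkinje cells, at 2.03 and 2.81 CPM. With differences of 1.09 and 2.05 it was counted as higher, but the ependymal class reached 2.54 CPM from 9 UMIs in the control library. The main forms Cox7a2 (0.97 and 1.05) and Cox7a2l (0.21 and 0.40) were present in every class.

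Cox4i2, the form of subunit 4 known from lung and from cells that sense oxygen, stood at 6.75 and 5.31 CPM in Purkinje cells, with 120 and 89 UMIs. The other compared classes lay at or under 2.11 CPM. Its highest level in the data was in the mural cells of blood vessels, a class too small to be compared, at 283 and 202 CPM in 57 and 26 cells. Mural cells also held Ndufa4l2, a relative of Ndufa4, at 647 and 595 CPM. In Purkinje cells Ndufa4l2 had only 18 and 19 UMIs, about 1 CPM, whereas mural cells had 318 and 118 UMIs of it beside 139 and 40 of Cox4i2. Among the mural markers in Purkinje cells, Rgs5 stood at 17.4 and 15.8 CPM and Notch3 at 7.03 and 6.98 CPM. The other 5 lay at or under 2.87 CPM, with Pdgfrb at 0.225 and 0.119 CPM. Purkinje cells were the highest compared class in both libraries for Rgs5 and Abcc9 (2.64 and 2.87 CPM), and for no other mural marker. The order of the 2 isoforms in Purkinje cells was thus the reverse of that in mural cells.

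The testis isoform Cox6b2 marked a different class. It stood at 98.4 and 102 CPM in ependymal cells, the ciliated cells of the ventricle wall, and at 3.21 and 2.93 CPM in Purkinje cells. Its Purkinje difference of -0.29 and -0.15 turned positive on the TMM scale. Ndufa4l2 was also highest in ependymal cells among the compared classes, at 22.0 and 23.6 CPM. Cox7b2, a relative of Cox7b, had 34 and 17 UMIs in Purkinje cells and did not exceed 2.10 CPM in any compared class. The common forms Cox6b1 (1.31 and 1.41), Cox7b (1.30 and 1.40) and Ndufa4 (1.29 and 1.36) were all higher in Purkinje cells.

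**Figure D3:**
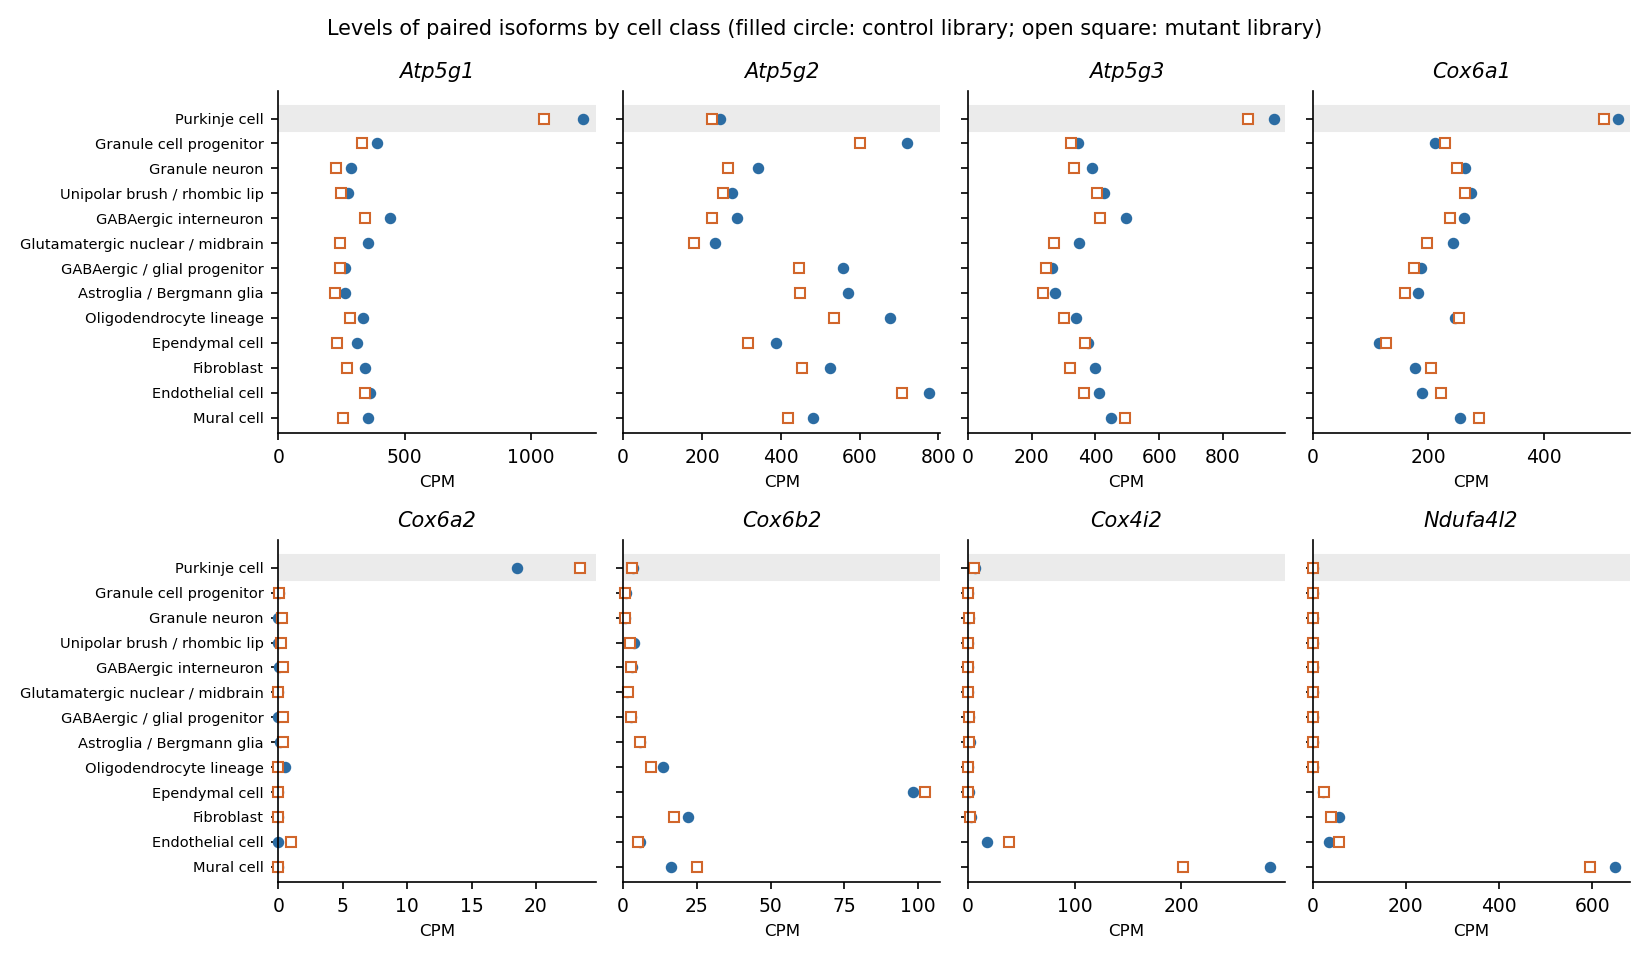
CPM (horizontal axes, each from 0 and with its own range) of 8 isoform genes in 10 compared classes and in the smaller fibroblast, endothelial and mural classes (vertical axis). Filled circles are the control and open squares the mutant library, and the grey band marks Purkinje cells; Atp5g1 and Cox6a2 are highest there, Atp5g2 is low there, and Cox6b2, Cox4i2 and Ndufa4l2 are highest in ependymal or mural cells.

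Depth split the gated Purkinje cells into a large and a small group. In the control library 473 cells had 20000 UMIs or more and 130 had fewer, and in the mutant library 434 and 80. The shallow cells held 3.36% and 3.48% of the Purkinje UMIs. Their nuclear members took a median of only 0.756% and 0.953% of the UMIs, against 4.18% and 4.12% in the deep cells. Their median mt- share was also lower, 1.96% and 5.21% against 7.99% and 7.76%. Summed over cells, however, their mt- level was lower in the control library alone (51349 against 80957 CPM) and higher in the mutant library (82566 against 77938 CPM). Their summed ratio of nuclear to mt- UMIs was 0.317 and 0.232, against 0.513 and 0.524 in the deep cells.

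The Purkinje markers, on which all these cells were gated, differed between the 2 groups in both directions. Calb1 stood at 1943 and 2417 CPM in the shallow cells against 3851 and 3894 CPM in the deep cells, and Pcp2 at 234 and 399 CPM against 732 and 815 CPM. Foxp2 was higher in the shallow cells, at 2891 and 2530 CPM against 1391 and 1430 CPM, and so was Itpr1. Of the shallow cells, 63 of 130 and 40 of 80 lay in a separate cluster that held no deep cell. Malat1, an RNA kept in the nucleus, took 1.27% and 1.85% of their UMIs against 0.803% and 0.762%. Genes of the cytosolic ribosome took 3.80% and 3.64% against 6.92% and 6.75%. Low levels of the nuclear members, low ribosomal levels and a higher Malat1 share thus moved together in cells of low depth. Without the shallow cells the difference of the summed nuclear members was 1.04 in place of 1.01, taken as the mean of both libraries, and 62 nuclear members were higher.

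**Figure D4:**
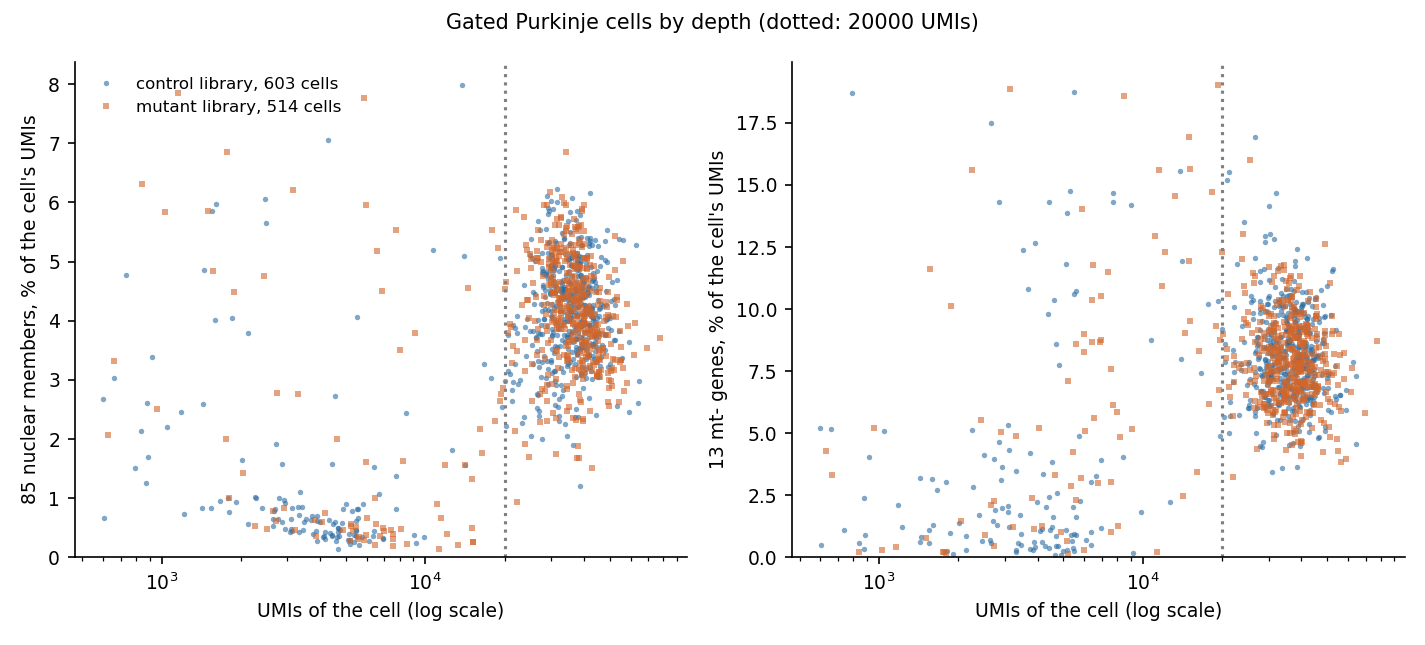
Share of each gated Purkinje cell's UMIs taken by the 85 nuclear members (left) and the 13 mt- genes (right) against the UMIs of the cell (log scale). Circles are 603 control cells, squares 514 mutant cells, and the dotted line marks 20000 UMIs; cells to its right cluster near 4.18% nuclear and 7.99% mt-, and many to its left lie under 1% nuclear.

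Classes were also set side by side within windows of depth. Among cells with 20000 to 40000 UMIs, 334 control and 300 mutant Purkinje cells had 41927 and 42558 nuclear CPM and 81765 and 79582 mt- CPM. In the same window GABAergic interneurons had 24778 and 21726 nuclear CPM and 35507 and 29370 mt- CPM. Granule cell progenitors had 22201 and 20706 nuclear CPM and 24875 and 21876 mt- CPM. Astroglia had 19568 and 16317 nuclear CPM. In that window Purkinje cells were the highest of the 5 classes set side by side, granule neurons included, for both genomes. At lower depth the order varied. From 500 to 5000 UMIs, 90 control and 29 mutant Purkinje cells had 11137 and 21196 nuclear CPM. Astroglia had 14342 and 16165 CPM, interneurons 10686 and 12774 CPM, and granule neurons 10268 and 15765 CPM. Mutant granule cell progenitors had 16813 CPM, so Purkinje cells were highest in the mutant library alone. Their mt- level, 31624 and 38342 CPM, was below that of the classes set beside them, 54839 to 90545 CPM. From 5000 to 10000 UMIs, 31 Purkinje cells in each library had 7274 and 16226 nuclear CPM, below the other 4 classes, which lay between 17630 and 22624 CPM. From 10000 to 20000 UMIs there were only 9 control and 20 mutant Purkinje cells, and the 20 had 20720 nuclear CPM, below granule cell progenitors (22740 CPM) and interneurons (20958 CPM). Their 104411 mt- CPM was above every class set beside them. Over all 9 other classes the Purkinje difference in this window was 0.88 and 0.11 for the nuclear members and 1.41 and 1.86 for the mt- genes, with 11 nuclear members higher. Of the windows where classes could be compared in both libraries, only 20000 to 40000 UMIs had Purkinje cells highest for nuclear members in both. Cells of 20000 UMIs or more hold nearly all UMIs of the class.

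A cap on mt- UMIs removes cells by a member of the set, and it touched Purkinje cells more than other neurons. With doublets included, 113 of 703 gated control Purkinje barcodes (16.1%, exact binomial interval 13.4 to 19.0) and 88 of 609 mutant ones (14.4%, 11.8 to 17.5) had more than 10% mt- UMIs. In the other neuronal classes this share stayed at or under 3.72%. Astroglia came closest, at 11.4% and 9.01%. The cells concerned were unlike in depth: Purkinje barcodes at 10 to 20% mt- UMIs had medians of 31505 and 30456.5 UMIs, and those of astroglia 3027 and 4034. Purkinje barcodes between 10 and 20% had 40151 and 39738 nuclear CPM, next to 39304 and 38890 CPM at or under 10%. Only 17 and 20 Purkinje barcodes (2.42% and 3.28%) were over the 20% cap used here, and these held 6247 and 12100 nuclear CPM. Astroglia had 3.94% and 1.84% over that cap, more than Purkinje cells in the control library. The other neuronal classes stayed at or under 0.455%.

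Other genes of the pathway were read from lists. The 3 respiratory genes outside the symbol rule were all higher in Purkinje cells: Ndufab1 (0.95 and 1.005), Cyc1 (1.28 and 1.36) and Cycs, or cytochrome c (1.76 and 1.93). Of 13 citric acid cycle genes, 7 were higher and 1 lower, beside 19.1% and 36.7% of all genes, with Idh3a, a subunit of isocitrate dehydrogenase, at 1.28 and 1.49. The lower one was Suclg2, the GTP-forming succinyl-CoA ligase subunit, at 1.29 and 0.96 CPM with differences of -4.15 and -4.69. Its ATP-forming counterpart Sucla2 was higher, at 142 and 156 CPM with differences of 0.75 and 0.97. This pair stood in opposite directions.

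Genes that build or maintain the chain were counted the same way. Of 47 tested assembly factors, 14 were higher and 1 was lower, beside the same shares of all genes, with medians of 0.37 and 0.46, and Uqcc2, which helps to make complex III, stood at 246 and 247 CPM. Of 24 genes that copy and read mitochondrial DNA, 1 was higher and 4 were lower, beside 19.1% and 36.7% of all genes. The mitochondrial RNA polymerase Polrmt was the higher one, with differences of 0.80 and 1.15 at 6.41 and 6.93 CPM. The DNA polymerase subunits Polg (-0.87 and -0.69) and Polg2 (-1.09 and -1.67), the single-strand binding protein Ssbp1 (-0.78 and -0.92) and the RNase P subunit Trmt10c (-0.85 and -0.81) were the lower ones, of which only Polg2 still passed 1.5-fold in both libraries with the TMM shift. Of 78 mitochondrial ribosome genes 17 were higher and 1 lower. Of 83 cytosolic ribosome genes 0 were higher and 4 lower. Their median of -0.33 and -0.16, and that of the genes for mitochondrial DNA, -0.20 and -0.17, changed sign with the TMM shift.

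Among 12 regulators of mitochondrial genes, 5 were higher and 4 lower, beside 19.1% and 36.7% of all genes. Ppargc1a, the PGC-1alpha coactivator, stood at 406 and 401 CPM in Purkinje cells against geometric means of 23.7 and 22.4 CPM elsewhere, a difference of 4.10 and 4.16. Ppargc1b was at 25.5 and 25.9 CPM, with 3.12 and 3.13. Their nuclear receptor partners Esrra (2.25 and 2.41), Esrrb (5.25 and 6.04) and Esrrg (0.76 and 0.92) completed the higher group. The factors that bind the searched motifs were lower: Nrf1 at -1.43 and -1.51, Gabpa at -1.27 and -0.92 and Gabpb1 at -1.20 and -1.25. With the TMM shift Gabpa no longer passed 1.5-fold in both libraries. Ppara was the remaining lower one, from under 1 CPM. The related coactivator Pprc1 (-0.57 and -0.51), Yy1 (-0.32 and -0.27) and Ppard (-0.28 and -0.81) were neither.

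The genes closest to the summed nuclear level over the 20 class and library sums, among 4572 genes compared by the correlation of log2 CPM, were Emc6 (0.93), Tma7 (0.93), Slc25a3 (0.91), Cyc1 (0.91) and Mrpl20 (0.90). Slc25a3 is the mitochondrial phosphate carrier that supplies the ATP synthase. Among the 5 genes closest to the mt- level were Selenow (0.91), Timm10 (0.89), Prdx3 (0.88) and Plcb4 (0.87). All of them share the same libraries and depths, and the coefficients carry no test. The 20 sums include those of Purkinje cells, and no coefficient without them is given. All the genes named here were higher in Purkinje cells. Plcb4, a phospholipase, stood at 1640 and 1675 CPM there with differences of 3.87 and 3.79.

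Between genotypes, Purkinje cells differed little in these transcripts. Their nuclear members differed by -0.022 (log2 of mutant over control, -0.027 to -0.017) and their mt- genes by -0.034 (-0.037 to -0.031). The other 9 classes were further below their control for the nuclear members, the unipolar brush or rhombic lip class (-0.030) by the least, and so were 8 of them for the mt- genes, ependymal cells (-0.020) being the exception. The nuclear members of granule cell progenitors stood at 23263 CPM in the control and 21616 CPM in the mutant library, a difference of -0.11, and their mt- genes at -0.12. Granule neurons were at -0.18 and -0.25, GABAergic interneurons at -0.18 and -0.23, and astroglia at -0.17 and -0.31. Glutamatergic nuclear or midbrain neurons had the lowest nuclear value, at -0.30. Their female cells, 202 control and 295 mutant, gave -0.31. Their male cells, 88 control and only 18 mutant, gave 0.027 (-0.017 to 0.070). Over all kept cells the values were -0.11 and -0.20. Each sign rests on 1 library per genotype, and whether they exceed the spread between animals was not measured.

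The sexes could be separated by Xist and Y-linked transcripts and served as a split within each library. In granule neurons and interneurons, female and male cells gave the same sign for both genomes. In Purkinje cells they did not for the nuclear members: 260 control and 204 mutant female cells gave -0.065, and 247 and 240 male cells gave 0.018, a difference between the sexes that was not tested. Their mt- genes stood at -0.070 and 0.0036. The mean of the shares of single cells, which gives a shallow cell the weight of a deep one, gave 0.095 for the nuclear and 0.076 for the mt- genes. Without the shallow cells the values were -0.025 and -0.055. The sign of the Purkinje difference therefore depended on how cells were chosen and weighted.

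Few members differed between genotypes by 1.5-fold, on a background of few genes of any kind. In Purkinje cells 3 of 95 tested members were higher and 1 lower, beside 2.31% and 2.41% of 13264 genes. In female cells alone 1 member was past 1.5-fold. In granule cell progenitors 2 were higher and 0 lower, beside 3.25% and 1.34% of all genes. Granule neurons (3.13% and 1.36% of all genes higher and lower), GABAergic interneurons (2.37% and 1.85%) and astroglia (4.79% and 1.97%) had 0 members past 1.5-fold in either direction. The counts of members were thus near or under the background throughout.

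The same few genes were at the top in each of these classes. Atp5k, the e subunit of ATP synthase, stood at 379 CPM in control and 594 CPM in mutant Purkinje cells, 0.65 (0.60 to 0.69), and was between 0.50 and 0.61 in the 4 other classes named. mt-Nd3, a core subunit of complex I, stood at 1522 and 2329 CPM in Purkinje cells, 0.61 (0.59 to 0.64), and between 0.35 and 0.53 in those 4. Ndufa3 was at 0.61 in Purkinje cells and between 0.39 and 0.45 elsewhere. Ndufb1-ps, a complex I gene that the annotation types as a non-coding RNA, was at 0.56 in Purkinje cells and between 0.43 and 0.62 elsewhere. Cox7b2 was the 1 member past 1.5-fold lower in Purkinje cells, at -0.91 (-1.85 to -0.03) from 34 and 17 UMIs.

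The lower end was less steep. Ndufb9, a complex I subunit, was among the 4 lowest, by the interval bound nearest to 0, in all 5 of these classes, from -0.33 in Purkinje cells (603 and 478 CPM) to -0.50 in astroglia. Ndufb8 (-0.24), Ndufs4 (-0.25) and Atp5g1 (-0.20) were the other low ones in Purkinje cells. Atp5o (-0.33), Atp5d (-0.34) and mt-Cytb (-0.29) joined Ndufb9 in granule cell progenitors. In granule neurons they were mt-Cytb (-0.40), Ndufb7 (-0.44) and Cox4i1 (-0.39), and in interneurons Ndufb8 (-0.47), mt-Cytb (-0.39) and Atp5d (-0.40). In astroglia mt-Cytb (-0.49), mt-Atp6 (-0.40) and mt-Co2 (-0.37) were low together, as were the mt- genes of that class in sum.

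Of 90 members tested in every one of the 10 classes, 6 were above 0 in all of them and 41 (45.6%) were below 0 in all of them. Over all 7451 genes tested in every class, 7.27% were above and 7.15% were below throughout. No share was taken over genes of a level like that of the members, and counting error turns the sign of a gene with few counts more easily. The 6 were Atp5k, Ndufa3, Ndufb1-ps, mt-Nd3, Atp5mpl and Cox7c. The classes of a library share its preparation and sequencing, so signs that repeat across them are not independent. Scaling moved single classes by up to -0.10 (astroglia, TMM), where Ndufa3 stood at 0.40. The lowest class values were 0.05 for Ndufa3, 0.07 for Atp5mpl and 0.03 for Cox7c. That of Ndufa3 lay outside the classes for which single genes are named above, and none of those remaining classes moved below -0.032 (ependymal cells, TMM). The classes with the lowest values of Atp5mpl and Cox7c are not given here.

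**Figure D5:**
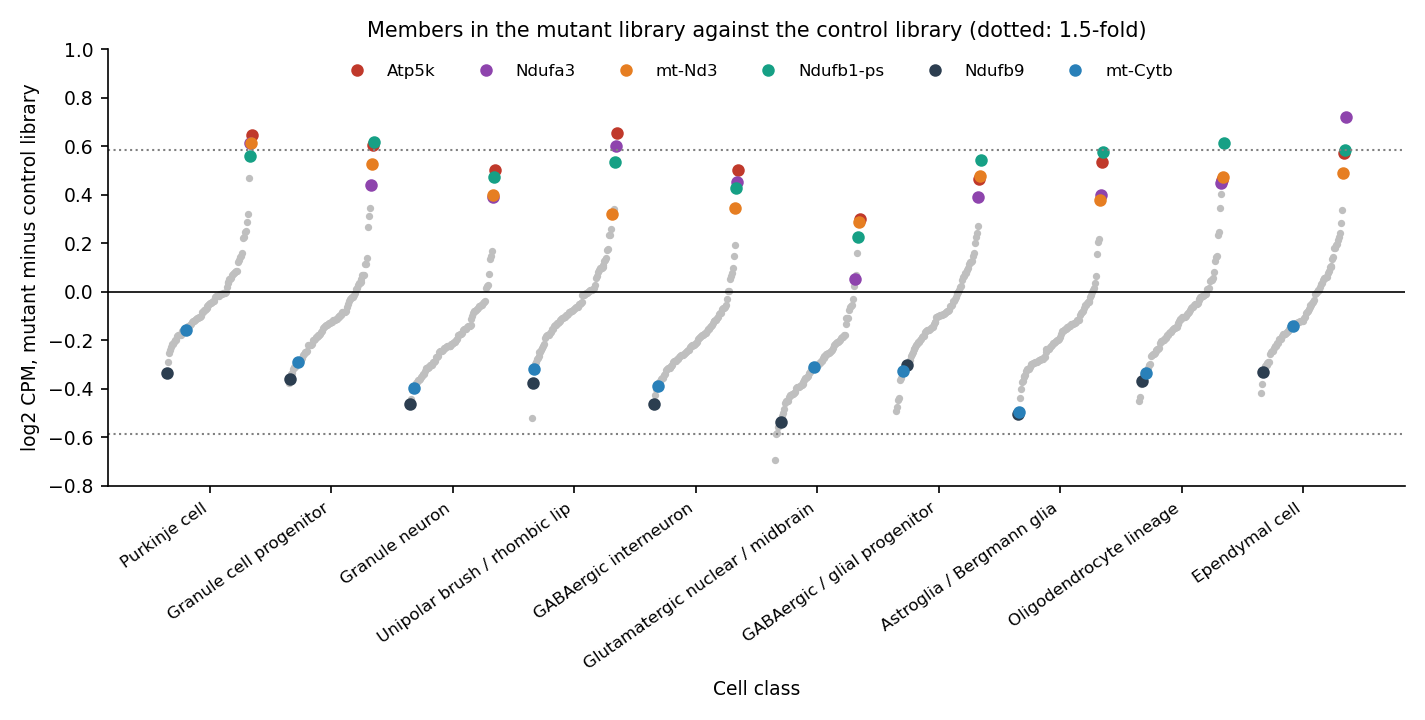
Log2 CPM of the mutant minus the control library (vertical axis) for the 90 members tested in all 10 classes (horizontal axis), ranked within each class. Grey points are members, coloured points 6 named genes, and dotted lines mark 1.5-fold; most members lie below 0, and Atp5k, Ndufa3, mt-Nd3 and Ndufb1-ps lie at the top of nearly every class.

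Several of the genes above 0 in every class have short transcripts. By the median annotated length of a gene's transcripts, Atp5k measures 321.5 bases, mt-Nd3 348, Ndufa3 433 and Atp5mpl 489. Cox7c, at 540 bases, and Ndufb1-ps, at 861, are longer. In Purkinje cells the 17 members of up to 500 bases had a median mutant difference of 0.23, and 12 were above 0. The 48 members over 500 and up to 1000 bases had a median of -0.08, and the 30 longer ones -0.06. Granule cell progenitors gave 0.07, -0.13 and -0.16, and granule neurons -0.04, -0.22 and -0.24. Over all genes in Purkinje cells the medians were 0.02, -0.08 and 0.01 in the same order of length. The step from the shortest to the middle group was larger among the members than among all genes in Purkinje cells, but not in granule neurons, where all genes went from 0.07 to -0.14. Whether transcript length has a part in the mutant difference was not tested. In all 10 classes the shortest members had the highest median of the 3.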

How the data were processed

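Single cells of the cerebellum were profiled with droplet 3' libraries (version 3.1 chemistry), 1 library of each genotype. Per the submitters' processing notes, reads were handled with bcl2fastq 2.20.0.4222 and Cell Ranger 7.2 on mm10. The sources used here do not say how intronic reads were treated. The authors deposited filtered matrices of raw UMI counts, 1 per library.

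From these counts, barcodes with at least 500 genes and at most 20% mt- UMIs were kept, and the highest Scrublet doublet scores were removed, 0.8% per 1000 deposited barcodes (7.67% and 7.64% of barcodes). Each cell was given a class by its mean scaled marker score, which had to reach 0.5, lead the next class by 0.25 and rest on 3 detected markers. Counts were summed per class and library, and genes needed 50 UMIs. Intervals (95%) are exact Poisson for levels and exact conditional binomial for ratios. Sums and calls were tested on simulated data. Scripts ran in Python 3.11.15 with scanpy 1.11.5 and scipy 1.17.1, and in R 4.3.3 with edgeR 4.0.16 (TMM) and DESeq2 1.42.0 (size factors), the last 2 for scaling only.

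The members and lists were chosen with earlier results of these data known, and the gate's scoring was chosen after seeing these data. Genes named are the most abundant member of each complex, the 8 highest and 8 lowest nuclear members, complex II, the isoforms, the mt- genes, and per class the 4 highest and 4 lowest between genotypes by the interval bound nearest to 0. Atp5b, Uqcrc1, Uqcrc2, the list members and Atp5mpl and Cox7c were named after their values were seen. Gene lengths and positions are from the GRCm38 annotation. The values of 1 gene are not reported here.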

Additional observations from a re-analysis of the deposited data

Results flagged for a closer look

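In 2 results the female and the male cells of a class stood on opposite sides of 0 between genotypes with both counting intervals clear of 0. The signs also differed in Purkinje mt- genes and in the nuclear members of the unipolar brush or rhombic lip class and of glutamatergic neurons, where the interval of the male cells included 0. The nuclear members of Purkinje cells stood at -0.065 in female cells and 0.018 in male cells (log2 of mutant over control), a gap of 0.083. The mt- genes of ependymal cells stood at -0.048 in female cells, of which there were 83 control and 42 mutant, and at 0.125 in male cells, a gap of 0.173. Each group is 1 library, and neither difference was tested.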

How the results depend on the processing

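No paired analysis was possible because each genotype has 1 library, and no replicate was left out for the same reason. The windows by depth were chosen after seeing the data, and the window from 10000 to 20000 UMIs rests on 9 control and 20 mutant Purkinje cells. Depth per cell differs between the classes and limits what the comparison of classes can show.

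The Purkinje difference of the nuclear members (1.01 as the mean of the libraries) was 1.35 with TMM factors, 1.29 with DESeq2 size factors, 0.89 as a mean of cell shares and 0.49 in that window. For the mt- genes (1.33) the values were 1.67, 1.61, 1.12 and 1.63 in the same order. The ratio of nuclear to mt- (-0.32) was -0.27 with a cap of 10%, -0.36 with no cap, -0.36 over cells of at least 5000 UMIs, -0.35 in male cells, -0.23 as a mean of cell shares, -1.14 in the window and -0.30 with Purkinje cells of 20000 UMIs or more. All 3 kept their sign under the alternatives run. The count of 59 higher nuclear members was 27 at 2-fold, 11 in the window, and 57 to 77 under the other alternatives. The share of all genes under these alternatives is not given here. The cause of the shift in the window was not tested.

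Between genotypes, the Purkinje nuclear value (-0.022) was -0.016 with a cap of 10%, -0.017 with doublets kept, -0.032 over cells of at least 5000 UMIs, -0.032 with TMM, -0.034 with DESeq2 factors, -0.065 in female cells and -0.91 in the window. It changed sign to 0.018 in male cells and 0.095 as a mean of cell shares. The mt- value (-0.034) was -0.0057 with a cap of 10%, -0.019 with no cap, -0.041 over cells of at least 5000 UMIs, -0.044 with TMM, -0.046 with DESeq2 factors, -0.070 in female cells and -0.055 with Purkinje cells of 20000 UMIs or more. It changed sign to 0.0036 in male cells, 0.076 as a mean of cell shares and 0.25 in the window. The count of 4 members past 1.5-fold was 1 in female cells, 0 at 2-fold and 57 in the window. The causes were not tested, although the window and the split by sex hold fewer cells.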
